A study of Mus musculus with 12 samples.

Results

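Astrocyte cultures from mouse midbrain and from mouse cortex were compared after both had received an shRNA against the RNA-binding protein PTB and had spent 2 weeks in neuronal differentiation medium. These are 4 of the 12 RNA-seq libraries of the series, 2 from each region. They were chosen by their titles alone: midbrain shPTB at 2 weeks, replicates 1 and 2, against cortical shPTB at 2 weeks, replicates 1 and 2. All cells came from C57BL/6 mice. The other 8 libraries are cortical and midbrain astrocytes that were mock treated in growth medium, and cortical and midbrain astrocytes with the same shRNA after 4 weeks in the differentiation medium, each group again with 2 libraries. The hairpin and the change of medium came together, so every 2-week library differs from the mock libraries in both. The comparison between regions holds hairpin, medium and time fixed. The labels do not say whether replicates were separate cultures or animals, so the p-values below measure the spread between these libraries, which may be technical. The series was set up to follow how gene expression moves from astrocyte to neuron when PTB is depleted. The comparison here asks in which genes cultures from the 2 regions stood apart part of the way through that protocol.

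Astrocytes are not the same cell in every part of the brain. They arise from radial glia that were patterned along the axis of the neural tube by homeobox and zinc-finger transcription factors and by Wnt, FGF, BMP, Hedgehog and retinoid signals. They keep part of that regional code in culture. PTB, the product of Ptbp1, is a splicing repressor of non-neuronal cells, and its paralog Ptbp2 takes over in young neurons. The REST complex is the other brake on neuronal genes in this pathway. Primary astrocyte cultures can also hold oligodendrocyte-lineage cells, microglia, ependymal cells, choroid plexus epithelium and meningeal fibroblasts. Lists of genes for each of these pathways and cell types were therefore read beside the astrocyte and neuronal genes.

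The cortical libraries held 6022098 and 7228061 assigned reads and the midbrain libraries 9429980 and 9527843. Both cortical libraries were thus shallower than both midbrain ones, which matters most for genes near 0 reads. Of the reads, 37.8% to 38.7% were mitochondrially encoded. The targeted gene, Ptbp1, stood at 173 and 251 CPM in the cortical and 208 and 249.98 CPM in the midbrain mock libraries, where CPM is reads per 1000000 of the library's scaled total. It stood at 73.0 and 73.5 CPM in cortex and 105 and 90.8 CPM in midbrain at 2 weeks, and at 89.2 and 90.5 CPM and 169 and 155 CPM at 4 weeks. Every shPTB library was below every mock library. At 2 weeks both midbrain libraries were above both cortical ones, by 0.42 ± 0.21 on the log2 scale (± SE here and below), which did not pass the test (adjusted p = 0.368 over all genes, 0.000296 with the 8-library fit described below). Of the 3′ end of Ptbp1, 29.6% is shared with Gm17134. Ptbp2 read 23.8 and 24.0 against 25.9 and 27.6 CPM (cortical against midbrain libraries), Ptbp3 6.74 and 7.95 against 12.1 and 12.03 CPM and Rest 2.25 and 2.92 against 2.26 and 2.43 CPM, and none of these 3 passed the test. The defining astrocyte markers were present in every library: Gfap at 12016 and 12720.0 against 6203 and 5822 CPM, Aqp4 at 316 and 299 against 344 and 333 CPM, Slc1a3 at 161 and 163 against 214 and 206 CPM and Aldh1l1 at 35.4 and 33.6 against 42.7 and 37.2 CPM. For Aldh1l1, 45.7% of the 3′ end is shared with an overlapping gene. Xist read 18.5 and 19.1 against 20.7 and 20.1 CPM and Ddx3y 2.06 and 2.43 against 2.83 and 1.99 CPM, so transcripts of both sexes were present in all 4 libraries.

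In the edgeR quasi-likelihood test over all 12 libraries, 430 of 14607 genes differed between midbrain and cortex at 2 weeks at an adjusted p under 0.05, which is 2.94% of those tested. Of these, 294 were higher in midbrain (2.01%) and 136 were lower (0.931%), and 252 and 102 of them, respectively, differed more than 2-fold. Among the 430 genes, 10 had 0 reads in the shallower cortical libraries and 1 had 0 in the midbrain libraries. The 12-library test takes 1 estimate of the spread from all groups. The mock pairs, with 16.8% and 12.9% of well-expressed genes more than 2-fold apart between replicates, stand far from the shPTB pairs, with 0.0727% to 0.202%. The chi-square per degree of freedom between replicates, 1 for counting error alone, was 1.89 to 2.3 in the shPTB pairs. In the mock pairs it was 100 and 91.2. Adjusted p-values of the 8-library fit therefore rest on a spread little above counting error, and are no equal to those of the 12-library fit. Fitted on the 8 shPTB libraries alone, the same contrast gave 3149 of 12401 genes (25.4%), 1526 higher in midbrain (12.3%) and 1623 lower (13.1%). Among them in the same direction were 423 of the 430 genes, the other 7 not being tested there. The 12-library count lay 68.4% towards midbrain and the 8-library count, over fewer tested genes, 48.5%. Each gene list below is given by both. With the replicate number as a block, the 12 libraries gave 2808 genes, 50.5% of them higher in midbrain. DESeq2 called 4% of 12341 genes with an adjusted p (2.54% higher, 1.47% lower) and limma voom with library weights 16.6% (8.31% and 8.27%). Both libraries of 1 region lay above both of the other for 57.2% of genes. Scaling to total reads moves the median difference of all genes from 0.02 to 0.141 and gives 547 genes, 423 of them higher in midbrain. Without cortical replicate 1, cortical replicate 2, midbrain replicate 1 or midbrain replicate 2 the first count was 71, 70, 94 and 86, where the remaining library of the group is assumed to vary like the others. The second was 2392, 2158, 2425 and 2243.

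**Figure D1:**
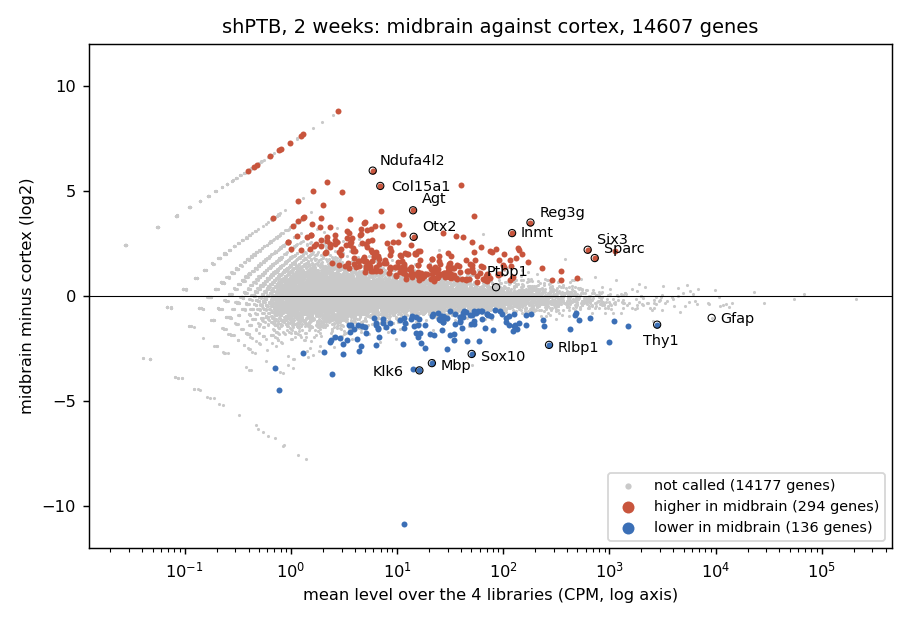
Midbrain-minus-cortex difference (log2, y axis) against mean level over the 4 libraries at 2 weeks of shPTB (CPM, log x axis), 1 point per gene, for all 14607 genes tested; red genes (294) were higher and blue genes (136) lower in midbrain at an adjusted p under 0.05. Outlined points are named genes, among them Ptbp1 and Gfap, which did not pass; points in the outermost diagonal rows are genes without reads in 1 region, whose fitted differences depend on the prior count.

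Regional transcription factors separated the cultures at 2 weeks. Of 46 midbrain and hindbrain patterning factors 16 had enough reads to test. Of these 4 were higher in midbrain, and all 4 are homeobox genes: Otx2, Irx3, Irx5 and Gbx2. The median difference over the 16 was 0.80 (log2), against 0.02 over all genes. Of all genes 2.01% were called higher, and 12.3% in the 8-library fit. The 8 shPTB libraries gave 9 of 14 higher and 0 lower (0 lower also at an unadjusted p under 0.05, in DESeq2 and in limma voom). Otx2, which specifies the anterior brain and is kept in midbrain and choroid plexus (ENSMUSG00000021848.16; chromosome 14, 48657677 to 48673819), read 3.18 and 3.89 CPM in the cortical libraries and 26.4 and 23.9 CPM in the midbrain libraries. Both midbrain libraries were thus several times above both cortical ones, a difference of 2.82 ± 0.25 (adjusted p = 0.00045). Irx3 read 0.374 and 0.649 against 6.34 and 7.06 CPM and Irx5, another Iroquois factor, 0 and 0.487 against 3.62 and 2.21 CPM, with 3 reads in all in cortex (11.1-fold, counting interval 3.61 to 55.8). Gbx2, a factor of the hindbrain side of the midbrain-hindbrain boundary, read 0.562 and 0.487 against 3.62 and 3.09 CPM. En1, the Engrailed factor that marks the same boundary, read 6.55 and 7.63 against 11.43 and 11.8 CPM, higher in both midbrain libraries but short of the test (adjusted p = 0.415; 0.0101 in the 8-library fit). Pax3, a paired-box factor of the dorsal neural tube, read 0.187 and 0 against 1.36 and 1.43 CPM (adjusted p = 0.0936). Irx1 had 0, 0, 9 and 5 reads and Irx2 0, 0, 4 and 4 (cortex, then midbrain). En2, Pax2, Pax7, Hoxa2, Hoxb3 and the cortical factor Emx1 had at most 4 reads in any of the 12 libraries. None of these 8 was tested.

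The Zic zinc-finger factors of the dorsal neural tube went the same way. Zic4 read 2.62 and 2.60 against 15.6 and 16.001 CPM, 2.59 ± 0.35 on the log2 scale (adjusted p = 0.00249), and Zic1 2.81 and 3.41 against 9.05 and 6.84 CPM. Zic1 and Zic4 are also on the fibroblast and meningeal list below. Forebrain factors did not form a simple counterpart. Of 32 tested forebrain and cortical patterning factors (46 listed), 1 was lower in midbrain and 2 were higher, with a median of -0.41. In the 8-library fit 10 were lower and 4 higher of 24. Among all genes 0.931% were lower and 2.01% higher, and 13.1% and 12.3% in the 8-library fit. Dmrta2, a factor of the dorsal telencephalon, was the gene that passed in the cortical direction, at 91.5 and 103 against 23.6 and 19.97 CPM (-2.15 ± 0.49, adjusted p = 0.0471). Lhx2 (19.8 and 18.0 against 9.51 and 12.4 CPM), Nr2f1 (345 and 374 against 189 and 200.2 CPM), Pax6 (48.3 and 43.8 against 33.3 and 31.8 CPM) and Emx2 (11.98 and 9.25 against 7.58 and 8.17 CPM) did not pass, with adjusted p of 0.0771, 0.245, 0.540 and 0.415. For each of these 4 the midbrain libraries were below the cortical ones. Meis2 (78.6 and 66.5 against 70.8 and 77.4 CPM), Dlx1 (5.43 and 5.03 against 4.41 and 3.97 CPM), Dlx2 (0.374 and 0.487 against 1.02 and 0.662 CPM) and Nr2f2 (6.74 and 5.36 against 9.17 and 8.50 CPM) did not pass either.

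Against its list's name, Six3, a homeobox factor of the anterior forebrain and eye field, was higher in midbrain. It read 203 and 242 CPM in the cortical libraries and 1048 and 1005 CPM in the midbrain libraries, 2.20 ± 0.29 on the log2 scale (adjusted p = 0.00346). Its antisense partner Six3os1, read from the opposite strand of the same locus on chromosome 17, gave 19.1 and 21.7 against 101 and 103 CPM and 2.32 ± 0.17 (adjusted p = 0.000173; chosen after its values were seen). The strand of the reads is not stated, so reads from the stretch where the pair overlaps cannot be told apart. Foxp1, a forkhead factor, read 2.06 and 2.60 against 5.66 and 7.17 CPM. Of the 10 called patterning genes named here, Otx2 and Six3os1 kept their call whichever of the 4 libraries was left out. Of the other 8, leaving out cortical replicate 1, cortical replicate 2, midbrain replicate 1 and midbrain replicate 2 ended 8, 8, 6 and 6 (adjusted p up to 0.272, 0.258, 0.277 and 0.335). In the 8-library fit the same omissions ended 0 (adjusted p up to 0.027). A correction for transcript length ended 6 (adjusted p up to 0.548).

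Signalling genes followed region unevenly. Wnt and retinoid genes leaned towards midbrain. Shares of all genes were 2.01% higher and 0.931% lower, and 12.3% and 13.1% in the 8-library fit. Of 37 tested Wnt pathway genes 5 were higher in midbrain (8-library fit 13 higher, 3 lower of 30) with a median of 0.63. Of 17 retinoid genes 3 were higher (12 higher of 17 in the 8-library fit) with a median of 0.77. Rlbp1, a retinaldehyde-binding protein gene outside that list, was called in the other direction (below). The Wnt genes were ligands and extracellular or cytoplasmic inhibitors. The ligand Wnt5a read 5.80 and 4.22 CPM in the cortical libraries and 19.4 and 20.2 CPM in the midbrain libraries, 1.98 ± 0.25 on the log2 scale (adjusted p = 0.00207), and the ligand Wnt10a 3.37 and 3.57 against 10.3 and 9.82 CPM. Frzb, a secreted Wnt-binding antagonist, read 1.87 and 2.76 against 14.3 and 13.02 CPM. Nkd2, which binds Dishevelled inside the cell, read 0.374 and 0.162 against 1.36 and 2.65 CPM, with 3 reads in all in cortex. Members of the retinoid list that passed included a carrier of retinoic acid and a receptor. Crabp1 read 46.6 and 46.3 against 242 and 213 CPM (2.29 ± 0.30, adjusted p = 0.00298) and Rara 3.93 and 3.25 against 8.71 and 7.72 CPM. For each the midbrain pair was above the cortical pair.

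The other developmental pathways had few calls in the 12-library fit, as did all genes (2.94%). In the 8-library fit 25.4% of all genes were called, and larger shares of the BMP, FGF and Notch lists were. Of 30 BMP and TGF-beta genes 1 was higher and 1 lower (8-library fit 8 and 4 of 27). The pseudoreceptor Bambi was lower, at 23.4 and 22.2 against 9.84 and 7.95 CPM. The activin antagonist Fst had 0 reads in both cortical libraries against 1.02 and 0.552 CPM in midbrain and was at least 2.999-fold higher over a floor of 3 reads for the group. Of 20 FGF pathway genes 1 was called (4 higher and 2 lower of 18 in the 8-library fit). The ligand Fgf1 was lower in midbrain, at 27.0 and 36.2 CPM in the cortical libraries and 9.96 and 8.28 CPM in the midbrain libraries, a difference of -1.79 ± 0.20 (adjusted p = 0.00149). In edgeR 0 of 13 Hedgehog genes and 0 of 21 Notch genes passed, with 2 and 8 at an unadjusted p under 0.05, 0 and 1 in DESeq2, 2 and 9 in voom, and 3 and 9 in the 8-library fit.

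Guidance and trophic genes had calls in both directions, as all genes did. Over all genes 2.01% were higher and 0.931% lower, and 12.3% and 13.1% in the 8-library fit. Of 55 axon guidance genes 3 were higher and 1 lower (8-library fit 9 and 6 of 43). The repulsive ligands Sema3b and Slit2 read 0.936 and 0.487 against 5.09 and 7.06 CPM and 7.11 and 6.17 against 13.9 and 15.2 CPM, the semaphorin receptor Plxna1 35.4 and 30.7 against 55.3 and 56.9 CPM, and the ephrin receptor Ephb1, the gene that was lower, 7.11 and 7.95 against 1.47 and 0.993 CPM. Of 18 GDNF and neurotrophin genes 2 were lower in midbrain (8-library fit 2 higher and 5 lower of 16), both receptors of the GDNF family. Ret, the signalling receptor of that family and a marker of dopaminergic neurons in midbrain, read 73.6 and 74.2 CPM in the cortical libraries and 17.2 and 16.1 CPM in the midbrain libraries, a difference of -2.15 ± 0.25 (adjusted p = 0.00185). Its co-receptor for neurturin, Gfra2, read 39.9 and 33.3 against 17.4 and 16.99 CPM. Among the 15 called genes of these pathways given with values, Fgf1 and Ret passed with any 1 library removed. Removing cortical replicate 1, cortical replicate 2, midbrain replicate 1 or midbrain replicate 2 ended 11, 12, 8 and 10 calls in the 12-library fit (adjusted p up to 0.205, 0.386, 0.269 and 0.294). In the 8-library fit, which did not test Fst, it ended 0, 1, 0 and 1, each time Nkd2 (adjusted p up to 0.0263, 0.0981, 0.0191 and 0.11). Transcript-length correction ended 7 (adjusted p up to 0.523).

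**Figure D2:**
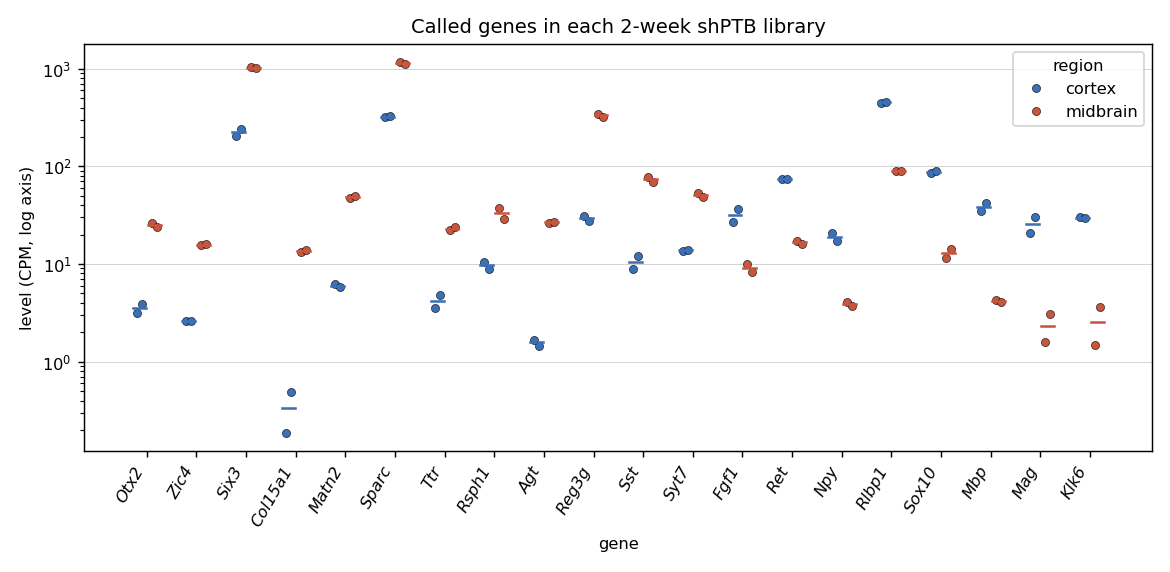
Level in each of the 4 libraries (CPM, log axis) for 20 genes called at 2 weeks; points are libraries, blue cortex and red midbrain, and short lines are group means. From Otx2 to Syt7 both midbrain libraries lie above both cortical libraries, and from Fgf1 to Klk6 they lie below.

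Extracellular matrix genes stood higher in midbrain. Of 34 tested collagen genes 10 were called, all higher in midbrain, with a median of 1.20. The 8 shPTB libraries gave 15 higher and 3 lower of 25. Among all genes 2.01% were higher and 0.931% lower, and 12.3% and 13.1% in the 8-library fit. Of 55 non-collagen matrix genes 9 were higher and 2, the perineuronal-net protein gene Tnr and Sparcl1, lower, with a median of 0.59 (8-library fit 23 and 4 of 45). Col15a1, a basement-membrane collagen (ENSMUSG00000028339.17; chromosome 4, 47208161 to 47313167), read 0.187 and 0.487 CPM in the cortical libraries and 13.2 and 13.9 CPM in the midbrain libraries, nearly absent from cortex and present in both midbrain libraries (5.24 ± 0.69, adjusted p = 0.000769). The microfibril collagens Col6a1 and Col6a2 read 4.49 and 5.52 against 19.5 and 21.3 CPM and 5.62 and 6.005 against 24.8 and 26.5 CPM, and the fibrillar Col1a1 35.9 and 45.3 against 158 and 167 CPM. Col12a1 read 0.187 and 0.325 against 1.58 and 1.66 CPM, with 3 reads in all in cortex. Matn2, a filament-forming matrilin, read 6.18 and 5.84 CPM in the cortical libraries and 47.5 and 49.5 CPM in the midbrain libraries, and its difference of 3.01 ± 0.21 had an adjusted p of 0.000168. Sparc, a collagen-binding glycoprotein, read 323 and 324 against 1157 and 1109.8 CPM (1.81 ± 0.18), the elastic-fibre protein gene Fbln5 82.6 and 83.3 against 243 and 269.8 CPM, Igfbp7 16.5 and 12.98 against 87.2 and 87.4 CPM and Postn 0 and 0.162 against 2.94 and 1.54 CPM, the last with 1 read in cortex.

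Fibroblast, pericyte and meningeal markers moved with the matrix genes. Of 22 tested 7 were called, all higher in midbrain, and 12 of 18 were higher in the 8-library fit. The median was 1.14. Of all genes 2.01% were called higher, and 12.3% in the 8-library fit. Twist1, a mesenchymal transcription factor, read 0 and 0.325 against 2.94 and 2.10 CPM and Vtn, vitronectin, 0.936 and 0.487 against 3.17 and 4.86 CPM. Igf2 was called too, but its whole 3′ end is shared with Gm49394. Summed over the list the level was 257.0 and 263 CPM in cortex and 568 and 585 CPM in midbrain, with no overlap. In mock it was 998 and 1092 against 2243 and 2396 CPM. Of the defining fibroblast markers, Dcn read 35.8 and 27.3 against 57.5 and 58.0 CPM (adjusted p = 0.0520) and Lum 0.374 and 0.325 against 0.905 and 0.772 CPM, neither passing, beside Col1a1, which did. The share of such cells in the cultures, and its part in the matrix result, was not tested. Col15a1, Col6a1, Col6a2, Fbln5, Matn2 and Sparc kept their calls without any 1 library. Of the 12 matrix and fibroblast genes given with values as called, those lost without cortical replicate 1, cortical replicate 2, midbrain replicate 1 and midbrain replicate 2 numbered 6, 5, 4 and 3 (adjusted p up to 0.274, 0.259, 0.164 and 0.195). Col12a1 alone was lost in the 8-library fit, under each of the 4 omissions (adjusted p 0.0768 to 0.14). The length correction ended 4 (adjusted p up to 0.126).

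Genes of motile cilia and of the choroid plexus were higher in midbrain. Ependymal cells line the ventricles and carry motile cilia, and the choroid plexus epithelium next to them secretes cerebrospinal fluid and transthyretin. Of 18 tested ependymal and choroid plexus markers (21 listed) 10 were higher in midbrain, and 14 of 15 were in the 8-library fit. The shares of all genes were 2.01% and 12.3%. For all 18 that were tested both midbrain libraries lay above both cortical ones, which was the case for 30.1% of all genes. The median difference was 2.07, or 1.82 with genes that had no reads in cortex set to the floor of 3 reads. The summed level of the list was 97.9 and 93.8 CPM in cortex and 281 and 290.1 CPM in midbrain. In mock it was 322 and 283 against 338 and 333 CPM. Ttr, transthyretin, read 3.56 and 4.87 CPM in the cortical libraries and 22.2 and 23.8 CPM in the midbrain libraries, 2.44 ± 0.23 on the log2 scale (adjusted p = 0.00056). Sostdc1, a secreted BMP and Wnt antagonist of the choroid plexus, read 1.498 and 0.649 against 9.39 and 6.95 CPM, the ciliated-cell genes Fam183b and Tmem212 2.995 and 2.27 against 20.6 and 19.9 CPM and 0.187 and 1.30 against 8.60 and 9.71 CPM, and the radial-spoke gene Rsph1 10.5 and 8.93 against 37.6 and 28.7 CPM. Dnah11, a ciliary dynein, had 0 reads in cortex and 10 and 7 in midbrain, but its 3′ end lies wholly within that of another gene, Cdca7l, and its count is uncertain.

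Further cilium genes outside the list were among the called genes. Odf3b, an outer dense fibre gene and 1 of the 10 largest rises, read 1.12 and 1.14 against 10.5 and 10.2 CPM (3.18 ± 0.40, adjusted p = 0.00149). Enkur and Cfap65, both axonemal genes and picked after their values were seen, read 0.936 and 0.649 against 8.94 and 8.83 CPM and 0.187 and 0.162 against 2.26 and 2.65 CPM. Foxj1, the master regulator of motile cilia and the defining ependymal marker, read 4.12 and 3.57 CPM in the cortical libraries and 6.22 and 9.16 CPM in the midbrain libraries, higher in both midbrain libraries without passing the test (adjusted p = 0.340; 0.00750 in the 8-library fit). Rsph1, Odf3b, Sostdc1 and Ttr kept their calls without any 1 of the libraries. Of the 8 cilium and choroid genes given as called, leaving out cortical replicate 1 ended 2 (adjusted p up to 0.0733), cortical replicate 2 ended 3 (0.103), midbrain replicate 1 ended 0 (0.0439) and midbrain replicate 2 ended 1 (0.0562). The 8-library fit lost 0 (adjusted p up to 0.0106).

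**Figure D3:**
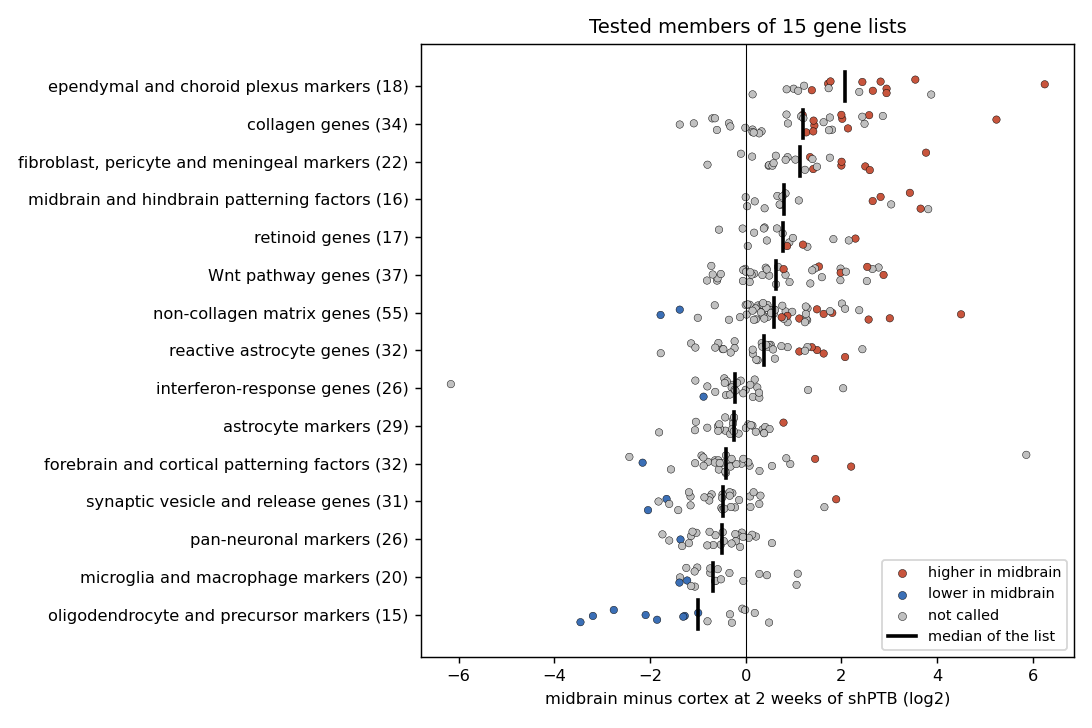
Midbrain-minus-cortex difference at 2 weeks (log2, x axis) for the tested members of 15 gene lists, with the number tested in brackets. Each point is a gene, red higher and blue lower in midbrain at an adjusted p under 0.05, grey not called, and the bar is the list's median. To the right of 0 lie 18 of 18 ependymal, 26 of 34 collagen, 20 of 22 fibroblast and 2 of 15 oligodendrocyte genes. The isolated grey points at either edge have no reads in 1 region.

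Oligodendrocyte-lineage genes stood lower in midbrain. Of 15 tested markers (22 listed) 8 were called, all lower in midbrain, among them Mag, Mbp, Sox10, Mobp, Bcas1, Cldn11 and Olig1. In the 8-library fit 9 of 14 were lower, and the list's median was -0.99. Of all genes 0.931% were called lower, and 13.1% in the 8-library fit. Sox10, the transcription factor that drives the lineage (ENSMUSG00000033006.10; chromosome 15, 79154908 to 79165240), read 85.4 and 90.6 CPM in the cortical libraries and 11.7 and 14.3 CPM in the midbrain libraries, a difference of -2.76 ± 0.23 (adjusted p = 0.000374). Mbp, myelin basic protein, read 34.6 and 42.2 CPM in the cortical libraries and 4.30 and 4.08 CPM in the midbrain libraries (-3.19 ± 0.21, adjusted p = 0.000168). Mag, a myelin adhesion protein, read 20.97 and 30.5 against 1.58 and 3.09 CPM (-3.45 ± 0.44). The cortical pair was above the midbrain pair for each of them. Bcas1, expressed as oligodendrocytes begin to myelinate, read 50.2 and 47.9 against 12.8 and 14.3 CPM, the tight-junction gene Cldn11 9.73 and 8.28 against 3.85 and 3.42 CPM, Mobp 5.99 and 5.03 against 0.792 and 1.77 CPM and the lineage factor Olig1 35.9 and 37.8 against 16.97 and 20.1 CPM. Klk6, a secreted protease of myelinating cells, was outside the list and among the 10 largest falls, at 30.3 and 29.5 CPM in the cortical libraries and 1.47 and 3.64 CPM in the midbrain libraries, -3.54 ± 0.40 on the log2 scale (adjusted p = 0.00149).

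The list summed to 684 and 697 CPM in cortex and 447 and 441 CPM in midbrain at 2 weeks, against 294 and 321 CPM in cortical and 382 and 419 CPM in midbrain mock libraries. Mog, a late myelin gene, had 2, 4, 0 and 1 reads and was not tested. In bulk RNA, fewer cells of a type and less RNA per cell cannot be told apart, here and in the other marker lists. Mag, Mbp, Sox10 and Klk6 kept their calls whichever library was left out. Mobp, Bcas1, Cldn11 and Olig1 lost theirs without cortical replicate 1 (adjusted p up to 0.278), cortical replicate 2 (0.19), midbrain replicate 1 (0.263) or midbrain replicate 2 (0.324). Of these 8, 0 were lost in the 8-library fit (adjusted p up to 0.0125). Transcript-length correction ended 3 (adjusted p up to 0.0934).

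Sox10 and its lineage genes were called together, and promoters of those genes are shown with the core letters of SOX binding, ACAAAG or its reverse complement CTTTGT, in capitals. Promoters of 3 of the 8 called genes were used, matched by symbol in the RefSeq promoter table (GRCm38.p6, 250 bases before to 50 after each start). Any promoter on the chromosome that carries Mbp was dropped from the selection. The other called genes were left out, which does not show that the table lacks them. The match counts below therefore do not describe the called genes as a set. Mag has 3 starts in the table, of which the first is printed. They are Mag at chr7:30914814-30915113 (minus strand), Mobp at chr9:120149492-120149791 (plus strand) and Cldn11 at chr3:31149670-31149969 (plus strand), each 5′ to 3′.
Mag: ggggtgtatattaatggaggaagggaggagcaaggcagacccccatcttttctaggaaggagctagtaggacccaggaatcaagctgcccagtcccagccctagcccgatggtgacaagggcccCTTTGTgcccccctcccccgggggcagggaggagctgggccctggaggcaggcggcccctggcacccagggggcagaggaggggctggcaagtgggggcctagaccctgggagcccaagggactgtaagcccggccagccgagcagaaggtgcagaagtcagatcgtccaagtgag
Mobp: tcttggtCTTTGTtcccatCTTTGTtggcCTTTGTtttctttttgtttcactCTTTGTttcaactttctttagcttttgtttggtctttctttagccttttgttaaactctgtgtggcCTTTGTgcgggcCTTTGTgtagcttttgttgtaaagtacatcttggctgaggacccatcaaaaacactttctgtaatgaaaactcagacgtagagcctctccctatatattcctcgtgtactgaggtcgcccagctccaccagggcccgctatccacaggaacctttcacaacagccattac
Cldn11: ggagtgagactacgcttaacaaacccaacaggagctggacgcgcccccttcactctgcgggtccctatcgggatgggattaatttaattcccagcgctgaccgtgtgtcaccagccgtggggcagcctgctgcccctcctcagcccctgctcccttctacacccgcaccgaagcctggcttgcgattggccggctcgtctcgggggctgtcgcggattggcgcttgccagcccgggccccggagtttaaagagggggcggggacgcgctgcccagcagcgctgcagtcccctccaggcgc
The Mag promoter held the letters 1 time, the Mobp promoter 6 times and the Cldn11 promoter 0 times. Of the other Mag promoters, 1 overlaps the printed one and holds the same match, and 1 holds none. Of all 32851 promoters in the RefSeq set, 18.7% held them, as did 13.9% of the 13678 promoters of tested genes. A match is a description of the sequence and does not show a site in use.

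Microglia and macrophage genes also stood higher in cortex. All genes had 0.931% lower in midbrain, and 12.3% higher and 13.1% lower in the 8-library fit. Of 20 tested markers 2 were called, the lysozyme gene Lyz2 at 182 and 193 against 73.2 and 70.4 CPM and the signalling adaptor Tyrobp at 39.9 and 36.7 against 17.3 and 15.4 CPM, both lower in midbrain (2 higher and 7 lower of 12 in the 8-library fit), with a median of -0.69. The platelet factor gene Pf4, which brain macrophages express and which was chosen after its values were seen, read 60.3 and 50.6 against 14.1 and 11.8 CPM (-2.09 ± 0.37). The list summed to 499 and 508 CPM in cortex against 305 and 289 CPM in midbrain, and to 2588 to 3662 CPM in the mock libraries. Of the defining markers C1qa read 4.87 and 3.89 against 1.92 and 1.43 CPM, Cx3cr1 0.187 and 0.325 against 0.226 and 0.883 CPM and Aif1 0.187 and 0.162 against 0.113 and 0.221 CPM, the last 2 near 0 in all 4. In edgeR 0 of 7 endothelial genes passed, with 1 at an unadjusted p under 0.05, 0 in DESeq2, 1 in voom and 1 in the 8-library fit. Pecam1 read 2.43 and 1.79 against 1.70 and 1.99 CPM and Cldn5 had at most 2 reads in any library. Lyz2, Tyrobp and Pf4 lost 2, 3, 3 and 3 of their 3 calls without cortical replicate 1, cortical replicate 2, midbrain replicate 1 and midbrain replicate 2 (adjusted p up to 0.227, 0.185, 0.201 and 0.277) and 0 in the 8-library fit. Of the 3′ end of Lyz2, 36.2% is shared with Lyz1.

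Astrocyte genes had few calls in the 12-library test, as all genes did, and were called mostly towards cortex in the 8-library test. Of 29 tested astrocyte markers 1 was called, Cst3 (cystatin C), higher in midbrain at 32.4 and 37.6 against 62.8 and 58.4 CPM. The 8 shPTB libraries gave 6 higher and 15 lower of 29, and the median was -0.25. Of all genes 2.94% were called in the 12-library fit, and 12.3% were higher and 13.1% lower in the 8-library fit. The list summed to 50323 and 52870 CPM in cortex and 38224 and 37672 CPM in midbrain. Gfap, the intermediate filament of astrocytes, read 12016 and 12720.0 CPM in the cortical libraries and 6203 and 5822 CPM in the midbrain libraries, -1.04 ± 0.28 on the log2 scale, short of the test over 12 libraries (adjusted p = 0.0889) and past it over the 8 (8e-16). The glutamate transporters went opposite ways without passing, Slc1a2 at 165 and 157 against 114 and 108 CPM and Slc1a3 at 161 and 163 against 214 and 206 CPM. Sox9 (621 and 627 against 529 and 514 CPM) and Gja1 (36.7 and 35.9 against 39.5 and 38.6 CPM) were among those not called.

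Genes that rise in reactive astrocytes leaned towards midbrain. All genes had 2.01% higher and 0.931% lower, and 12.3% and 13.1% in the 8-library fit. Of 32 tested 5 were higher in midbrain (17 higher and 4 lower of 28 in the 8-library fit), with a median of 0.39: Nes, Fbln5, Cp, Serping1 and Hspb1. Nes, nestin, a filament of immature and reactive glia, read 2.06 and 2.76 CPM in the cortical libraries and 10.1 and 10.5 CPM in the midbrain libraries, 2.08 ± 0.28 on the log2 scale (adjusted p = 0.00238). The ferroxidase Cp read 52.2 and 52.7 against 146 and 150.0 CPM (1.49 ± 0.21) and the complement inhibitor Serping1 17.2 and 16.2 against 42.4 and 44.7 CPM (1.38 ± 0.18). Lgals3, galectin-3, was outside the list and chosen after its values were seen, at 28.5 and 26.5 against 113 and 132 CPM (2.16 ± 0.22). Summed over the list the level was 11793 and 12133 CPM in cortex and 11443 and 11340.0 CPM in midbrain. Of Cst3, Nes, Fbln5, Cp, Serping1 and Lgals3, Fbln5 and Lgals3 kept their calls throughout. Of the 6, 3, 3, 1 and 2 were lost without cortical replicate 1, cortical replicate 2, midbrain replicate 1 and midbrain replicate 2 (adjusted p up to 0.363, 0.234, 0.317 and 0.222) against 0 in the 8-library fit.

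Neuronal genes were not raised in midbrain as a group. Of 26 tested pan-neuronal markers 1 was called, Thy1, lower in midbrain. In the 8-library fit 1 was higher and 12 were lower of 24, and the median was -0.50. For comparison, 2.01% of all genes were higher and 0.931% lower, and 12.3% and 13.1% in the 8-library fit. Thy1, a surface glycoprotein of neurons that other cells of these cultures can also carry, read 3917 and 4198 CPM in the cortical libraries and 1602 and 1554 CPM in the midbrain libraries (-1.36 ± 0.21, adjusted p = 0.00621). It made up most of the summed level of the list, 5570 and 5934 CPM in cortex against 3006 and 2966 CPM in midbrain. The defining markers were low and did not pass: Tubb3 at 23.8 and 19.5 against 12.9 and 14.1 CPM, Map2 at 26.4 and 28.2 against 30.1 and 29.9 CPM, Rbfox3 at 1.68 and 2.43 against 1.13 and 0.883 CPM and Snap25 at 1.68 and 3.41 against 0.905 and 0.772 CPM. Dcx at 11.04 and 12.8 against 7.58 and 13.1 CPM and Syn1 at 18.5 and 19.96 against 11.3 and 11.5 CPM did not pass either. Of 31 synaptic vesicle genes 1 was higher and 2 lower (8-library fit 3 and 12 of 28; median -0.48). Syt7, a calcium sensor of slow vesicle release, read 13.7 and 13.96 CPM in the cortical libraries and 53.8 and 48.8 CPM in the midbrain libraries, 1.89 ± 0.20 on the log2 scale (adjusted p = 0.000993). Syt4, another synaptotagmin, read 15.4 and 12.5 against 4.07 and 4.75 CPM and the vesicle glycoprotein Sv2c 6.93 and 6.49 against 1.47 and 1.77 CPM.

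Transmitter and peptide genes split by gene. Shares of all genes were 2.01% higher and 0.931% lower, and 12.3% and 13.1% in the 8-library fit. Of 17 tested GABAergic neuron genes 3 were higher in midbrain, Sst, Calb1 and Pvalb, and 2 lower, Npy and Cck (8-library fit 4 and 3 of 14). Of 19 neuropeptide genes, which include 3 of the same ones, 1 was higher and 2 lower (1 and 7 of 17). Sst, somatostatin, read 8.99 and 12.2 CPM in the cortical libraries and 78.1 and 68.7 CPM in the midbrain libraries (2.79 ± 0.33, adjusted p = 0.00205). Npy, neuropeptide Y, went the other way at 20.6 and 17.04 CPM in the cortical libraries and 4.07 and 3.75 CPM in the midbrain libraries (-2.26 ± 0.28, adjusted p = 0.00207). So did Cck, cholecystokinin, at 5.24 and 5.52 against 1.13 and 0.441 CPM. The calcium buffer Calb1 had 0, 1, 25 and 32 reads, 36.6-fold with a counting interval of 6.32 to 1472. Gad1 (23.03 and 24.2 against 19.4 and 18.9 CPM), Gad2 (2.995 and 4.06 against 3.17 and 1.66 CPM) and Calb2 (163 and 167 against 104 and 98.9 CPM) did not pass. The dopaminergic list, the fate that midbrain cultures are studied for, had 1 higher (Calb1) and 1 lower (Ret) of 15 tested (8-library fit 5 and 2 of 13). Th, tyrosine hydroxylase, had 8 and 10 reads in cortex and 1 and 1 in midbrain (adjusted p = 0.103). Nr4a2, a factor of that lineage, read 1.68 and 1.14 against 1.24 and 1.77 CPM and Aldh1a1 326 and 332 against 302 and 327 CPM. Slc6a3, the dopamine transporter, had 0 reads in all 12 libraries, which allows at most 0.562 CPM in the shallowest 2-week library.

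In edgeR 0 of 8 glutamatergic genes passed, with 2 lower at an unadjusted p under 0.05, 0 in DESeq2, 2 in voom and 1 in the 8-library fit. Slc17a6 had 0 reads in all 12 libraries and Slc17a7 at most 7 in any. Likewise 0 of 12 neurogenic transcription factors passed, with 0 at an unadjusted p under 0.05, in DESeq2, in voom and in the 8-library fit. Of 4 other monoamine, cholinergic and glycinergic genes 1 was higher, the acetylcholinesterase gene Ache, at 0.749 and 0.811 against 5.997 and 6.62 CPM (2.99 ± 0.40, adjusted p = 0.00185; 8-library fit 1 and 1 of 4). Of 42 neurotransmitter receptors 2 were higher, Gabra5 (26.6 and 30.3 against 72.8 and 72.2 CPM) and Grm4 (23.8 and 22.6 against 44.9 and 46.7 CPM), and 2 lower, Gabrb1 (64.4 and 68.0 against 39.5 and 42.6 CPM) and Grin3a (1.87 and 1.14 against 0 and 0.110 CPM; 8-library fit 8 and 6 of 36). Of 46 channels 1 was higher, the sodium channel Scn7a with 0, 1, 36 and 41 reads, and 1 lower, Cacng4, an AMPA-receptor auxiliary subunit of the calcium-channel gamma family, at 19.3 and 22.7 against 8.15 and 7.61 CPM (8-library fit 3 and 9 of 35). Of 40 synaptic adhesion and cadherin genes 1 was higher, Cntnap2 (5.43 and 7.14 against 16.4 and 17.4 CPM), and 4 lower, among them Cntn2 (5.80 and 4.54 against 1.24 and 0.883 CPM), Lrrtm1 (5.62 and 4.71 against 1.81 and 2.10 CPM) and Pcdh10 (39.3 and 41.4 against 21.3 and 17.3 CPM; 8-library fit 5 and 10 of 33). The shares over all genes were 2.01% higher and 0.931% lower, and 12.3% and 13.1% in the 8-library fit. Ache, Npy, Scn7a and Syt7 kept their calls whichever library was left out. Of the 19 called neuronal genes given with values, 15, 14, 14 and 14 were lost without cortical replicate 1, cortical replicate 2, midbrain replicate 1 and midbrain replicate 2 (adjusted p up to 0.278, 0.295, 0.322 and 0.249). In the 8-library fit Grin3a alone was lost, without midbrain replicate 1 (adjusted p 0.0618). The length correction ended 11 (adjusted p up to 0.578).

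Several of the largest single differences belonged to none of these lists. Ndufa4l2, a mitochondrial protein gene induced by hypoxia, read 0 and 0.325 CPM in the cortical libraries and 13.7 and 9.60 CPM in the midbrain libraries, 66.8-fold higher in midbrain with a counting interval of 18.3 to 556 over 2 cortical reads (adjusted p = 0.00045). Agt, angiotensinogen, which in the adult brain marks astrocytes outside the telencephalon (ENSMUSG00000031980.9; chromosome 8, 124556534 to 124569706), read 1.68 and 1.46 CPM in the cortical libraries and 26.6 and 26.9 CPM in the midbrain libraries, 4.08 ± 0.37 on the log2 scale (adjusted p = 0.000374). Reg3g, an antimicrobial lectin gene of inflamed tissue (ENSMUSG00000030017.2; chromosome 6, 78466269 to 78468872), read 30.9 and 27.8 CPM in the cortical libraries and 345 and 319 CPM in the midbrain libraries (3.50 ± 0.29, adjusted p = 0.000454). Inmt, an indolethylamine methyltransferase, read 26.02 and 27.9 CPM in the cortical libraries and 219.5 and 212 CPM in the midbrain libraries (2.998 ± 0.31, adjusted p = 0.00128). In each of these 4 genes the midbrain pair lay far above the cortical pair. Elobl read 5.99 and 8.11 against 95.3 and 102 CPM and the epithelial envelope gene Sprr2b 0.749 and 1.79 against 13.9 and 12.5 CPM, with 24% and 25.3% of their 3′ ends shared with other genes.

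On the cortical side, Rlbp1, a retinaldehyde-binding protein of glia in retina and brain, read 443 and 458 CPM in the cortical libraries and 90.4 and 89.5 CPM in the midbrain libraries, -2.32 ± 0.31 on the log2 scale (adjusted p = 0.00339). The citrate transporter gene Slc13a5 read 11.6 and 9.57 against 2.38 and 1.77 CPM, Pgm5 47.2 and 53.6 against 9.39 and 8.39 CPM and the GTPase-activating gene Gmip 17.6 and 38.3 against 7.13 and 4.63 CPM. Mafa, a transcription factor best known from pancreatic beta cells and chosen after its values were seen, read 56.5 and 49.5 against 13.8 and 16.6 CPM. The named extremes also held Rpl10 and Gm14308, higher in midbrain, and Gm14434, lower with 92, 183, 0 and 0 reads. However, 77% to 100% of their 3′ ends are shared with other genes, and their counts are uncertain. Agt, Elobl, Inmt, Ndufa4l2 and Reg3g kept their calls without any 1 library. Of those 5 and Sprr2b, Rlbp1, Slc13a5, Pgm5, Gmip and Mafa, leaving out cortical replicate 1, cortical replicate 2, midbrain replicate 1 and midbrain replicate 2 ended 4, 3, 5 and 5 (adjusted p up to 0.0826, 0.279, 0.138 and 0.256) and 0 in the 8-library fit. The length correction ended 3 (adjusted p up to 0.0764).

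Housekeeping and stress programs showed few calls in the 12-library fit. Over all genes 2.94% were called there, so few calls do not set these lists apart. In the 8-library fit 25.4% of all genes were called. The lists lay on both sides of that share, the mitochondrially encoded and MHC class I genes above it. Of 30 proliferation genes 1 was higher in midbrain, the spindle gene Prc1 at 1.68 and 1.30 against 4.53 and 3.86 CPM (8-library fit 3 higher and 1 lower of 17), and Mki67 read 1.87 and 3.25 against 2.60 and 3.75 CPM. Of 26 interferon-response genes 1 was lower, Ifit1 at 60.5 and 71.4 against 36.5 and 35.1 CPM (3 and 5 of 26). Of 25 stress genes 1 was lower, the cystine transporter gene Slc7a11 at 63.8 and 57.4 against 19.8 and 22.95 CPM (3 and 5 of 24). Of 15 mitochondrially encoded genes 1 was lower, mt-Nd6 at 148 and 139 against 70.6 and 66.5 CPM (2 and 8 of 15). In edgeR 0 genes passed among 18 MHC class I and antigen presentation genes, 23 cholesterol biosynthesis genes, 13 immediate early genes, 18 genes of the PTB and REST axis, 5 sex-linked genes and 1 Hox gene. At an unadjusted p under 0.05 these lists had 6, 6, 2, 1, 0 and 0. The counts were 0, 0, 1, 0, 0 and 0 in DESeq2, in voom 6, 2, 3, 2, 0 and 0, and in the 8-library fit 7, 4, 4, 3, 0 and 0. The 4 called genes lost 4, 3, 4 and 3 of their calls without cortical replicate 1, cortical replicate 2, midbrain replicate 1 and midbrain replicate 2 (adjusted p up to 0.246, 0.268, 0.254 and 0.299). Prc1 was lost without cortical replicate 2 or midbrain replicate 1 in the 8-library fit (adjusted p 0.101 and 0.0768).

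The same regional contrast can be read in the mock cultures and at 4 weeks, which share no library with the 2-week contrast. In mock 320 genes differed between regions (2.19%; 183 higher in midbrain, 1.25%, and 137 lower, 0.938%). That balance turned to 144 higher and 172 lower without cortical mock replicate 1, and was 219 and 106 without cortical mock replicate 2. At 4 weeks there were 1167 (7.99%; 800 higher, 5.48%, and 367 lower, 2.51%). There the split was 1270 and 196 with scaling to total reads, 1883 and 1820 on the 8 shPTB libraries, and 1793 and 1544 with the replicate block. Of the 430 genes called at 2 weeks, 97 were called in the same direction in mock, which is 22.6% of the 2-week and 30.3% of the mock genes. At 4 weeks 286 were, 66.5% of the 2-week and 24.5% of the 4-week genes. In the opposite direction 13 were called in mock and 4 at 4 weeks. The difference had the same sign in mock for 77% of the 430 genes, and at 4 weeks for 92.1%. Over all genes the shares were 56% and 58.8%. Called in the same direction in all 3 states were 85 genes, 64 higher and 21 lower in midbrain, among them Otx2, Zic4, Agt, Col15a1, Col6a1, Matn2, Fbln5 and Fgf1. For Otx2 the midbrain-minus-cortex difference was 2.16 in mock, 2.82 at 2 weeks and 2.99 at 4 weeks, and for Fgf1 -2.07, -1.79 and -2.01. Another 125 genes were called at 2 weeks alone, which does not show that their difference changed.

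**Figure D4:**
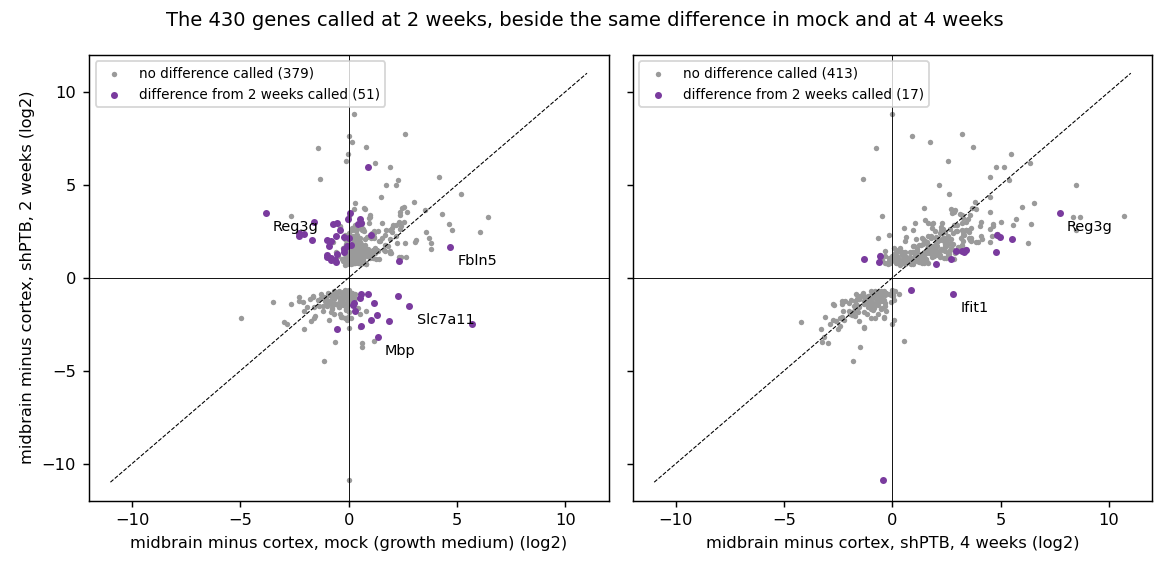
Midbrain-minus-cortex difference at 2 weeks (log2, y axis) of the 430 genes called there, against the same difference in mock (left) and at 4 weeks (right). The dashed line marks equal differences, and purple genes (51 and 17) are those whose difference itself was called as changed between the states. Most points at 4 weeks lie in the same quadrants as at 2 weeks (396 of 430 share the sign), and fewer do in mock (331 of 430).

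The test of the difference between regional differences called 100 genes between 2 weeks and mock (0.685%), 62 with the difference further towards midbrain at 2 weeks (0.424%) and 38 towards cortex (0.26%). Of the 100, 51 were also called at 2 weeks. Mbp was among them. It read 1.28 and 1.59 CPM in the cortical and 3.31 and 3.92 CPM in the midbrain mock libraries, where midbrain was higher (1.33, adjusted p = 0.0124). At 2 weeks it read 34.6 and 42.2 CPM against 4.30 and 4.08 CPM, and midbrain was lower. The midbrain levels of the 2 states lay close together, between 3.31 and 4.30 CPM. The regional difference changed by -4.53 ± 0.32 (adjusted p = 0.000117). Reg3g read 6.45 and 10.9 CPM against 0.380 and 0.835 CPM in mock and, at 2 weeks, the reverse order at a higher level, a change of 7.33 ± 0.52 (adjusted p = 0.000117). Inmt, at 5.64 and 9.87 against 1.52 and 3.66 CPM in mock, changed by 4.58 ± 0.47, and Ndufa4l2, at 3.31 and 3.98 against 6.51 and 6.93 CPM, by 5.09 ± 0.90 (adjusted p = 0.00112 and 0.00511). Slc7a11 read 0.407 and 0.796 CPM against 4.39 and 3.79 CPM in mock, so that it too had opposite regional orders in the 2 states (-4.30 ± 0.37, adjusted p = 0.000204). Fbln5 kept its direction while its difference shrank, from 4.70 in mock to 1.63 at 2 weeks (-3.07 ± 0.24, adjusted p = 0.000204). The count of 100 was 34, 26, 36 and 33 without cortical replicate 1, cortical replicate 2, midbrain replicate 1 and midbrain replicate 2 of the 2-week libraries, and 163, 81 towards midbrain and 82 towards cortex, without replicate 2 of the cortical mock libraries.

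Between 2 and 4 weeks the regional difference was called as changed in 60 genes (0.411%). In 53 of them (0.363%) it lay further towards cortex at 2 weeks than at 4 weeks, and in 7 (0.0479%) further towards midbrain. Interferon-response genes held 9 of the 60, all further towards cortex at 2 weeks, out of 26 tested. Ifit1, an interferon-induced RNA-binding protein gene, read 60.5 and 71.4 against 36.5 and 35.1 CPM at 2 weeks and 13.004 and 11.1 against 83.2 and 86.4 CPM at 4 weeks, a reversal of order with a difference of -3.69 ± 0.26 (adjusted p = 0.000312). Oasl2 read 29.4 and 36.8 against 19.8 and 18.2 CPM at 2 weeks and 2.75 and 2.31 against 23.3 and 26.8 CPM at 4 weeks (-4.10 ± 0.32, adjusted p = 0.000326). Usp18, which removes the ubiquitin-like ISG15, read 15.2 and 18.2 against 12.3 and 14.2 CPM and then 1.65 and 1.54 against 16.2 and 18.6 CPM. The cortical libraries were the ones that lay lower at 4 weeks than at 2 weeks in all 3 genes. The summed level of the list was 1201 and 1205 CPM in cortex and 1232 and 1223 CPM in midbrain at 2 weeks, close together, and 474 and 503 against 1430.5 and 1457 CPM at 4 weeks. Reg3g was higher in midbrain at both times, by 3.50 at 2 weeks and 7.73 at 4 weeks, where the cortical libraries read 0.916 and 0.192 CPM. The count of 60 was 7 without each of the 4 libraries at 2 weeks in turn, and 3, 4, 6 and 6 without cortical replicate 1, cortical replicate 2, midbrain replicate 1 and midbrain replicate 2 at 4 weeks. On the 8 shPTB libraries it was 2240, of which 1285 lay further towards cortex at 2 weeks and 955 further towards midbrain.

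**Figure D5:**
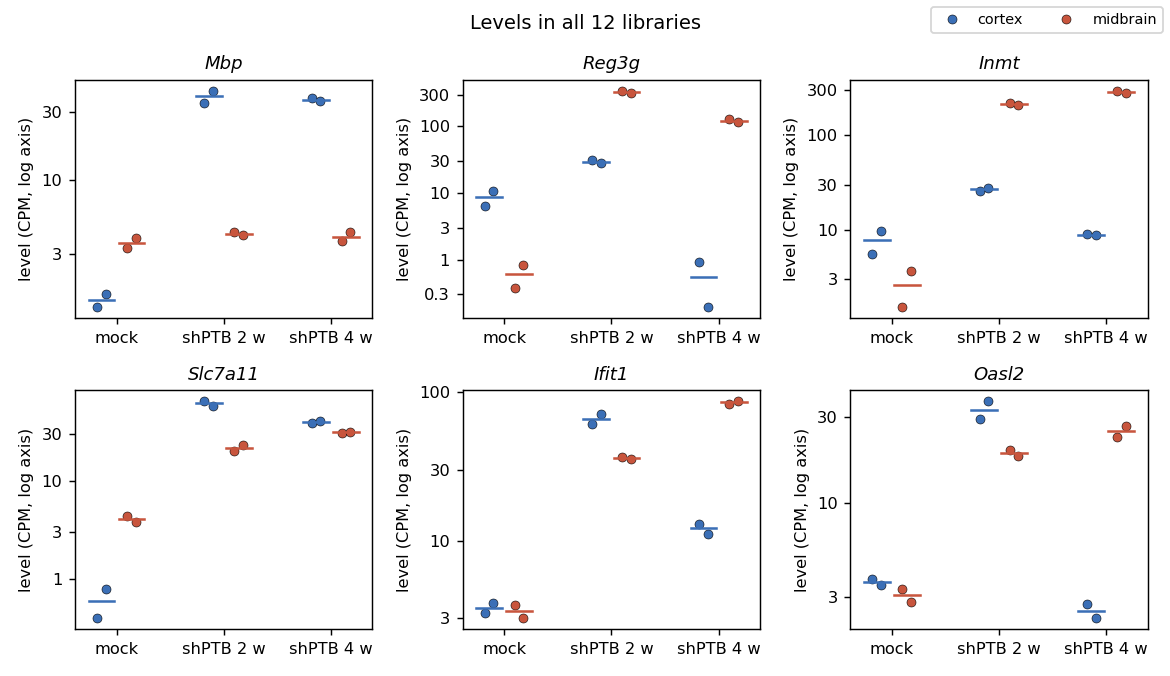
Level in all 12 libraries (CPM, log axis) of 6 genes whose regional difference at 2 weeks differed from that in mock or at 4 weeks; points are libraries, blue cortex and red midbrain, and short lines are group means. Mbp, Reg3g, Inmt and Slc7a11 change their regional order between mock and 2 weeks, and Ifit1 and Oasl2 between 2 and 4 weeks.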

How the data were processed

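RNA from cultured mouse astrocytes was sequenced in 12 libraries, 6 groups of 2. Per the labels' protocols, total RNA was reverse transcribed with a biotinylated primer and the complementary strand was made with random primers; the strand of the reads is not stated. Per the submitters' processing notes, reads were trimmed with cutadapt 2.3 and quantified with Salmon 0.14.1, and the build named is mm10. The authors deposited, per transcript, an estimated count of reads and a TPM with effective length; the estimated counts need not be whole. DESeq2 is also named in the notes, without its role.

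Here the estimated counts were summed per gene through GENCODE M21 (140137 of 140658 transcripts matched by identifier without version; unmatched ones held at most 0.129% of reads) and rounded, giving 54356 genes. The TPM and lengths served the length correction alone. The test was edgeR 4.0.16 quasi-likelihood (R 4.3.3) with TMM scaling, on 14607 genes kept by edgeR's filter (minimum count 10, total 15), all 6 groups in 1 fit, with Benjamini-Hochberg adjustment over all genes and a threshold of 0.05. Alternatives used DESeq2 1.42.0 and limma 3.58.1. The fit was also run on simulated counts with known changes to check its code; those values are not reported here. Libraries held 6022098 to 11385761 reads. Intervals for counts of 1 to 3 reads are exact at 95% and, like the floor of 3 reads, cover counting error only, since PCR reads without molecular identifiers are not independent molecules.

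Groups came from the titles. The replicate numbers were not taken as pairs: deviations of libraries with the same number correlated by 0.0209 at 2 weeks, 0.00417 at 4 weeks and 0.715 in mock over all genes, and by 0.233, 0.115 and 0.863 over 5679 genes above 10 CPM. The labels name nothing the numbers share, so the block is an alternative. The genes named are a fixed set of lineage and regional genes, the 10 largest rises and falls with at least 10 CPM, up to 4 called genes from each of 40 lists (877 of 1180 genes tested, 72 on more than 1 list), the 6 largest changes of each regional difference, and defining cell type markers; others are marked as chosen after their values were seen. Some genes these rules select are not reported here. The members and lists were chosen with earlier results of these data known.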

Additional observations from a re-analysis of the deposited data

Results flagged for a closer look

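Results are given here because the difference between midbrain and cortex was not the same in the 2-week libraries as in mock or at 4 weeks, by the interaction test in edgeR. Against mock the regional difference was called as changed in 100 genes and against 4 weeks in 60.

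Against mock, the midbrain-minus-cortex difference (log2) was larger at 2 weeks for Reg3g, by 7.332, for Ndufa4l2, by 5.086, for Inmt, by 4.582, and for Cbr2, a carbonyl reductase gene, by 4.55. It moved towards cortex for Mbp, by -4.528, and for Gm7565, by -8.176. Cbr2 fell in all 8 shPTB libraries to 0 to 3.04 CPM, from 7.38 to 38.6 CPM in mock, and 42.1% of its 3′ end is shared with another gene; for Gm7565 the share is 52.3% and both cortical mock libraries had no reads, so the value depends on the prior count.

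Against 4 weeks, the midbrain-minus-cortex difference lay further towards cortex at 2 weeks for Reg3g, by -4.224. The same held for 4 genes of the interferon response, Usp18 by -3.766, Oas1g by -3.778, Oasl2 by -4.104 and Tgtp2 by -10.26. For Gm14434, with reads in cortex alone at 2 weeks, the difference also lay further towards cortex, by -10.43. Tgtp2 had no reads in cortex at 4 weeks and Gm14434 none in midbrain at 2 weeks, so these 2 values depend on the prior count, and the 3′ ends of both are shared wholly with a near-identical gene (Tgtp1 and Gm2007), as is 45.1% of that of Oas1g with Oas1a.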

How the results depend on the processing

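No named gene called at 2 weeks, in the fit as reported or under an alternative, changed sign between them; genes that were not called, such as Sox9 and Map2 with the length correction, did. The balance of calls did change: from 294 higher and 136 lower at 2 weeks to 1526 and 1623 on the 8 shPTB libraries, in mock from 183 and 137 to 144 and 172 without cortical replicate 1, and for the change against mock from 62 and 38 to 81 and 82 without cortical mock replicate 2. The count of genes at 2 weeks stayed within 1.5 times 430 with RLE or total-read scaling, DESeq2, a strict filter or without mitochondrial genes (398 to 547). It was 826 without a count filter, 210 with the transcript-length correction, 3149 on the 8 shPTB libraries, 3209 on the 4 libraries compared and 2422 with limma voom weights. Leaving out 1 library gave 70 to 94 and, on the 8 shPTB libraries (added after seeing the data), 2392 and 2158 without each cortical and 2425 and 2243 without each midbrain replicate. In mock (320) the count was 556 without a filter, 163 with the length correction and 242 to 325 with 1 library left out. At 4 weeks (1167) it was 3703 on the 8 shPTB libraries and 442 to 516 with 1 library left out. For the change against mock (100) it was 168 in DESeq2, 318 without a filter, 48 with the length correction and 26 to 163 with 1 library left out. For the change against 4 weeks (60) it was 134 with total-read scaling, 147 in DESeq2, 275 without a filter, 92 with the strict filter, 2240 on the 8 shPTB libraries and 3 to 7 with 1 library left out. The causes were not tested.

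With the replicate number within each state as a replicate block, the counts were 2808 at 2 weeks, 1962 in mock, 3337 at 4 weeks, 1634 for the change against mock and 1723 for the change against 4 weeks; all 430 genes stayed called in the same direction. Whether the numbers pair the libraries was not settled.

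Of 104 called genes chosen by the naming rules, the length correction ended 42 calls, total-read scaling 12, DESeq2 11 and RLE 6. Irx5 and Nkd2 rest on 3 reads in cortex, which leaves Irx5 a counting interval of 3.61- to 55.8-fold.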
